A study of Homo sapiens with 4 samples.

Results

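The miR-99/100 and miR-125 families are 2 groups of related microRNAs (miRNAs) whose genes sit side by side at 3 places in the human genome. They were taken as every strand in the deposited miRNA table named miR-99a, miR-99b, miR-100, miR-125a or miR-125b, which gave 10 of 1345 rows: miR-100-5p and -3p, miR-99b-5p and -3p, miR-99a-5p, miR-125a-5p and -3p, miR-125b-5p, miR-125b-1-3p and miR-125b-2-3p. The data are 4 small-RNA sequencing libraries from HCT116 cells, an established line from a human colorectal carcinoma. In these cells doxycycline switches on a short hairpin RNA (shRNA) that targets SAE2, the catalytic subunit of the enzyme that activates the small protein modifier SUMO. The plus libraries (replicates 1 and 2) were read as induced and the minus libraries (replicates 1 and 2) as not induced, from the words plus and minus alone, since the labels give the same 3 days of doxycycline for each library. Replicate 1 of the minus libraries is the sh1 line and replicate 2 of each group the sh2 line, 2 lines with independent shRNAs against the same target. Plus replicate 1 is labelled without a number and was placed in the sh1 line by elimination. No library of induced cells without an SAE2 shRNA was analysed here, and SAE2 itself is not measured by miRNA libraries, so effects of doxycycline cannot be told apart from those of the knockdown and its depth was not checked.

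A miRNA is cut from a hairpin precursor, which gives a strand from its 5′ arm (5p) and one from its 3′ arm (3p). Usually one of them, the main strand, is kept in the silencing complex, and the other, the minor strand, is mostly degraded. Bases 2 to 8 of the strand, the seed, do most of the pairing with target mRNAs, so strands that share a seed are expected to share many targets. miR-125 is the vertebrate relative of lin-4, a regulator of developmental timing in Caenorhabditis elegans, and its hairpins lie in clusters with a let-7 and a miR-99 or miR-100 hairpin. In human cells miR-99 and miR-100 repress MTOR, a kinase that drives growth. In colorectal cancer cells miR-100 and miR-125b, made from MIR100HG, have been tied to resistance to the antibody cetuximab.

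The mature 5p strands are shown first because they fall into the 2 seeds compared throughout. Sequences are from RefSeq (GRCh38.p14), which matched all 10 strands, and capitals mark the seed.
miR-100-5p: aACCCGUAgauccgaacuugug
miR-99a-5p: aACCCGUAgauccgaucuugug
miR-99b-5p: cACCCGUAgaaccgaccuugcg
miR-125b-5p: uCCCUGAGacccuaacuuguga
miR-125a-5p: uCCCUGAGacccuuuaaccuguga
The first 3 strands share the seed ACCCGUA and the other 2 the seed CCCUGAG. miR-100-5p and miR-99a-5p differ at 1 of 22 bases, A16U, counted from 1 at the 5′ end of miR-100-5p. Reads of one could therefore be counted for the other, and whether this happened was not tested. miR-99b-5p differs from miR-100-5p at 4 bases, A1C, U11A, A16C and U21C. miR-125b-5p and miR-125a-5p share their first 13 bases and are 22 and 24 bases long. miR-10a-5p, from a HOX locus, shares a stretch of 11 bases with miR-100-5p but has another seed.

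The 3p strands are shown because they tell the loci apart where the 5p strands do not, again with bases 2 to 8 in capitals.
miR-100-3p: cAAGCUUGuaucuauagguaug
miR-99b-3p: cAAGCUCGugucuguggguccg
miR-125b-1-3p: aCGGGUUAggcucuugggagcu
miR-125b-2-3p: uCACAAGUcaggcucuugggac
miR-125a-3p: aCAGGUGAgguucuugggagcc
Each of these 5 strands has a seed of its own.

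The hairpins lie in 3 clusters of the same order, miR-99 or miR-100, then let-7, then miR-125 (GRCh38, GENCODE 29). On chromosome 11, on the minus strand, MIR100 (122152229 to 122152308), MIRLET7A2 (122146522 to 122146593) and MIR125B1 (122099757 to 122099844) span 52.6 kb, and each lies in an intron of every transcript of the long non-coding gene MIR100HG that spans it. On chromosome 19, on the plus strand, MIR99B (51692612 to 51692681), MIRLET7E (51692786 to 51692864) and MIR125A (51693254 to 51693339) lie within 728 bases of each other, in an intron of the protein-coding gene SPACA6. They also overlap an exon of SPACA6P-AS on the opposite strand. On chromosome 21, on the plus strand, MIR99A (16539089 to 16539169), MIRLET7C (16539828 to 16539911) and MIR125B2 (16590237 to 16590325) span 51.2 kb in introns of the long non-coding gene MIR99AHG. miR-125b-5p is made with the same sequence by MIR125B1 and MIR125B2 and cannot be assigned to either locus, whereas miR-125b-1-3p comes from chromosome 11 and miR-125b-2-3p from chromosome 21.

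**Figure D1:**
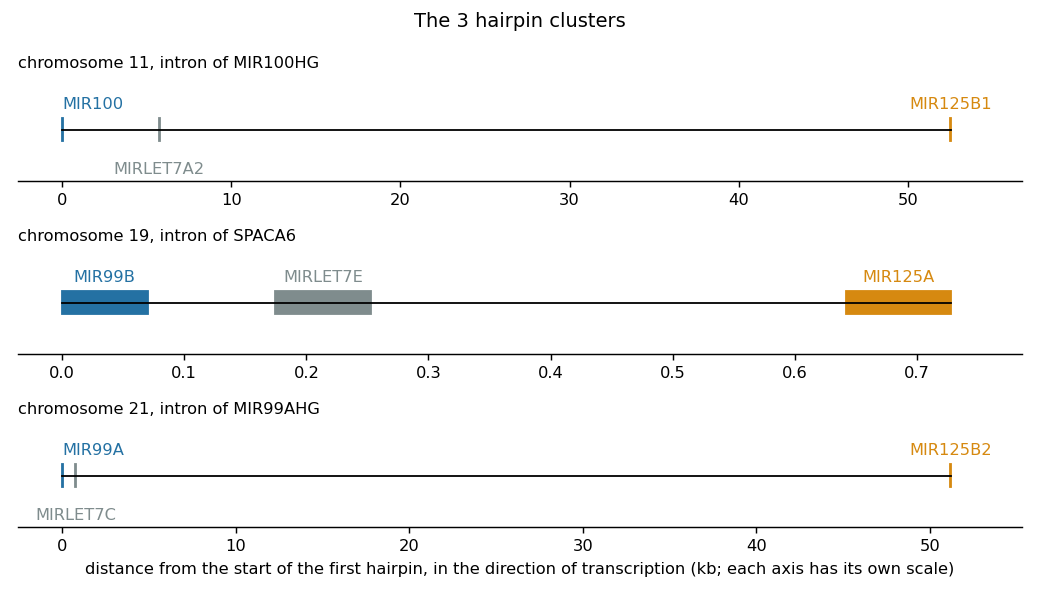
Positions of the hairpins in the 3 clusters, drawn to scale along the direction of transcription, with the distance from the start of the first hairpin in kb on the horizontal axis of each panel. The miR-99/100 hairpins are blue, let-7 hairpins grey and miR-125 hairpins orange; the chromosome 19 cluster spans 0.728 kb, against 52.6 kb on chromosome 11 and 51.2 kb on chromosome 21.

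Values are normalised read counts as deposited, which summed to 9833885 and 10519207 in plus replicates 1 and 2, against 9847531 and 9700472 in minus replicates 1 and 2. A count of 0 allows up to 3 reads, worth 2.83 to 3.08 normalised counts in these libraries, which covers counting error only. All 8 epithelial marker miRNAs used to check the cell label had a mean of at least 10, and their summed count was 317898 and 317791 in the plus libraries, against 279543 and 268904 in the minus libraries, with 5 of the 8 called higher. Of 6 blood markers 2 lay under a mean of 10 and 0 were called, and the list summed to 1026 and 1205 in the plus libraries, against 993 and 1212 in the minus libraries. Stromal and endothelial markers (5, of which 1 was called higher and 1 lower) summed to 13455 and 16189 in the plus libraries, against 15960.2 and 16012 in the minus libraries. Of 6 muscle, liver and neuron markers 5 had a value, dominated by miR-9-5p, and they summed to 18663 and 20238 in the plus libraries, against 14695 and 13919 in the minus libraries, with 1 called higher. Over all rows tested, 13.4% were called higher and 15.1% lower by the fit described below. The part of these lists in the results on the families was not tested. In these bulk libraries fewer cells with a miRNA and less of it per cell cannot be told apart.

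The families made up a large part of the miRNA counts in these libraries. All 10 strands together took 15.3% and 17.1% of the total in plus replicates 1 and 2, against 18.6% and 19.2% in minus replicates 1 and 2. Most of this was miR-100-5p, the second most abundant of the 1345 rows in each library, and miR-99b-5p held rank 9 in each. The order of the strands was the same in both groups, from miR-100-5p through miR-99b-5p, miR-125b-5p, miR-125a-5p, miR-125b-1-3p, miR-99b-3p, miR-99a-5p, miR-125a-3p and miR-100-3p to miR-125b-2-3p. In neither group did any of the 9 pairs of neighbours in this order overlap in their values. Strands are 22 to 24 bases long, so counts were not divided by length. Whether strands of different sequence are turned into reads equally well was not tested. The order, the shares and the ratios between strands are therefore those of read counts.

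**Figure D2:**
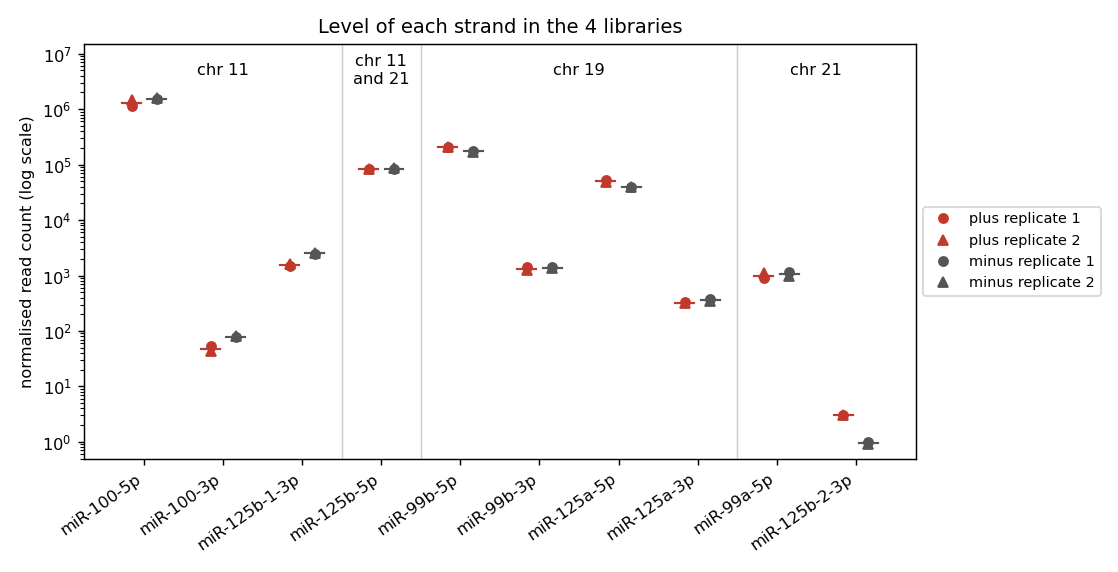
Normalised read count of each of the 10 strands (log scale) in plus (red) and minus (grey) libraries, with circles for replicate 1, triangles for replicate 2 and bars for each group's mean. In the plus libraries levels run from 1159540.3 and 1456187 for miR-100-5p down to 3.07 and 3.06 for miR-125b-2-3p.

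Whether the strands changed with induction was tested with limma on log2(normalised count + 1), plus over minus, fitted over all 709 rows with a mean of at least 10 and adjusted over them by Benjamini-Hochberg at a threshold of 0.05. Of the 10 strands 9 were tested, and 2 rose, 3 fell and 4 did not pass. Over all rows tested 28.5% were called, 13.4% as higher and 15.1% as lower, which is the background for these 5 calls among 9 strands. The median log2 change was −0.11 over the 9 strands, against −0.03 over all rows tested. By locus, the 3 tested strands made only on chromosome 11 fell. The 5p strands of chromosome 19 rose and its 3p strands did not pass. The 1 tested strand made only on chromosome 21 did not pass, nor did miR-125b-5p, made on chromosomes 11 and 21. By arm, 2 of the 5 tested 5p strands rose and 1 fell, and of the 4 tested 3p strands 0 rose and 2 fell. Whether the calls follow the locus or the arm was not tested. A difference between loci was tested only through the pairs of strands described further on. With 2 libraries a group the calls rest on a spread shared with other rows. Of the 9 strands, 0 were called without plus replicate 1, without plus replicate 2, without the mean-variance trend or without the filter on low values, and 1 (miR-125b-1-3p) was called when either minus library was left out.

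On chromosome 11 the strands made only by the MIR100HG cluster were lower in the plus libraries. miR-125b-1-3p, the minor strand of MIR125B1, stood at 1489 and 1595 normalised counts in plus replicates 1 and 2, against 2465 and 2572 in minus replicates 1 and 2. The groups did not overlap, which held for 62.9% of all rows tested. Its mean was 1542 ± 74.9 in the plus libraries and 2519 ± 75.2 in the minus libraries (SD, n = 2 each), a ratio of 0.612. On the log2 scale it fell by 0.71 (SE 0.10; limma, adjusted p = 3.90e-07), and 7.05% of the rows tested had a change this low or lower. The change was −0.73 in the sh1 line and −0.69 in the sh2 line. Leaving out plus replicate 1 gave a limma adjusted p of 0.0697, and leaving out plus replicate 2 gave 0.0518.

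miR-100-5p, the main strand of MIR100, had 1159540.3 and 1456187 normalised counts in plus replicates 1 and 2, against 1523766 and 1562967 in minus replicates 1 and 2. Both plus libraries lay below both minus libraries, but they differed from each other by more than the minus libraries did. The means were 1307864 ± 209761 in the plus libraries and 1543366 ± 27719 in the minus libraries (SD, n = 2 each). The log2 change of −0.25 (SE 0.09; limma, adjusted p = 0.0427) came with −0.39 in the sh1 line and −0.10 in the sh2 line. Over both lines it lay between the quartiles of all rows tested, −0.332 and 0.265. The size of this fall rested on 1 library, since leaving out plus replicate 1 gave −0.08 (limma adjusted p = 0.487) and leaving out plus replicate 2 gave −0.41 (limma adjusted p = 0.0573). The call was also lost when minus replicate 1 (limma adjusted p = 0.456) or minus replicate 2 (0.512) was left out, under median-ratio scaling (0.192) and at a minimum mean of 100 (0.0774). Quantile normalization, which sets rows of equal rank to equal values, made the change 0.00. The share of miR-100-5p in all miRNA counts was 11.8% and 13.8% in plus replicates 1 and 2, against 15.5% and 16.1% in minus replicates 1 and 2.

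miR-100-3p, the minor strand of the same hairpin, is rare, with 53.5 and 43.0 normalised counts in plus replicates 1 and 2, against 76.6 and 79.5 in minus replicates 1 and 2. The plus libraries lay below the minus libraries in both lines. It fell by 0.69 on the log2 scale (SE 0.24; limma, adjusted p = 0.0271). Under quantile normalization its log2 change was −0.67 and did not pass (limma, adjusted p = 0.0749). The call was lost with any library left out, with limma adjusted p-values of 0.1002 and 0.144 for plus replicates 1 and 2 and of 0.136 and 0.182 for minus replicates 1 and 2.

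The let-7 hairpin between them, MIRLET7A2, is read by let-7a-2-3p, the 3p strand that only this copy of let-7a makes. It had 275 and 283 normalised counts in plus replicates 1 and 2, against 409 and 446 in minus replicates 1 and 2, and so lay lower in both plus libraries. It fell by 0.61 on the log2 scale (SE 0.14; limma, adjusted p = 0.000811), with limma adjusted p-values of 0.0891 without plus replicate 1 and 0.0605 without plus replicate 2. With it, 4 of 4 strands made only at this locus fell, against 15.1% of all rows tested, with a median log2 change of −0.65. For miR-100-5p that call held in 4 of 13 alternatives. Of the 4 strands, all but miR-100-5p are minor 3p strands. miR-125b-5p, the main strand of MIR125B1, is also made on chromosome 21 and was not counted. It did not pass (log2 change −0.04; limma, adjusted p = 0.776). let-7a-3p, which comes from the copies on chromosomes 9 and 22 and not from this locus, also fell, at 1107 and 1059 normalised counts in the plus libraries, against 1710.4 and 1593 in the minus libraries. The log2 change was −0.61 (limma, adjusted p = 2.01e-05), with limma adjusted p-values of 0.0746 without plus replicate 1 and 0.0536 without plus replicate 2. let-7a-5p, shared by all 3 copies, had a log2 change of −0.13 (limma, adjusted p = 0.225) and did not pass.

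On chromosome 19 the main strands of the SPACA6 cluster were higher in the plus libraries. miR-125a-5p had 52414 and 48305 normalised counts in plus replicates 1 and 2, against 39419 and 40096 in minus replicates 1 and 2. Both plus libraries lay above both minus libraries. The means were 50359.7 ± 2906 in the plus libraries and 39757 ± 478 in the minus libraries (SD, n = 2 each), a ratio of 1.27. It rose by 0.34 on the log2 scale (SE 0.08; limma, adjusted p = 0.00110), by 0.41 in the sh1 line and 0.27 in the sh2 line, and 18.9% of the rows tested had a change this high or higher. The call was lost with any library left out, at limma adjusted p-values of 0.0958 and 0.0518 for plus replicates 1 and 2 and of 0.0952 and 0.0641 for minus replicates 1 and 2, while the log2 change stayed between 0.28 and 0.40. Quantile normalization made the change 0.03 (limma, adjusted p = 0.513).

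miR-99b-5p, the other main strand of this cluster, had 208249 and 205604 normalised counts in plus replicates 1 and 2, against 175717 and 171352 in minus replicates 1 and 2. The 2 libraries of each group lay close together and the groups did not overlap. It rose by 0.25 on the log2 scale (SE 0.08; limma, adjusted p = 0.0149), by 0.25 in the sh1 line and 0.26 in the sh2 line. The rise lay between the quartiles of the log2 change over all rows tested, −0.332 and 0.265. Here too each left-out library ended the call, at limma adjusted p-values of 0.113 and 0.0837 for plus replicates 1 and 2 and of 0.284 and 0.345 for minus replicates 1 and 2, while the log2 change stayed between 0.24 and 0.27. Scaling to equal totals gave 0.20 (limma, adjusted p = 0.0676), and quantile normalization gave 0.00.

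The remaining strands of chromosome 19 did not pass. miR-99b-3p had 1397 and 1266 normalised counts in the plus libraries, against 1420.1 and 1352 in the minus libraries, and the groups overlapped. The log2 change of miR-99b-3p was −0.06, with a 95% interval of −0.28 to 0.16. miR-125a-3p had 331 and 318 normalised counts in the plus libraries, against 374 and 352 in the minus libraries, with the plus libraries lower. The change of miR-125a-3p was −0.16 on the log2 scale, with a 95% interval of −0.45 to 0.12. Between them, let-7e-5p had 11379.8 and 11505 normalised counts in the plus libraries, against 10699.96 and 10719 in the minus libraries, a log2 change of 0.10 (95% interval −0.07 to 0.27). let-7e-3p had 139.9 and 177 normalised counts in the plus libraries, against 148 and 150.2 in the minus libraries, and the groups overlapped.

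The strands made only on chromosome 21, in the MIR99AHG cluster, did not pass or were too rare to test. miR-99a-5p had 897 and 1090.0 normalised counts in plus replicates 1 and 2, against 1142 and 991 in minus replicates 1 and 2, and the groups overlapped. For miR-99a-5p the log2 change was −0.11, with a 95% interval of −0.34 to 0.13. In each library there were between 1293 and 1577 counts of miR-100-5p for each count of this strand, from which it differs by 1 base. miR-125b-2-3p lay at 3.07 and 3.06 normalised counts in the plus libraries, against 1.01 and 0.92 in the minus libraries. This corresponds to about 6 reads in the plus and 2 in the minus libraries, a ratio of 3.03 with a 95% exact binomial (Clopper-Pearson) counting interval of 0.541 to 30.7, so no difference was detectable at this depth. The let-7 strand of this locus, let-7c, had 227 and 204 normalised counts in the plus libraries, against 221 and 217 in the minus libraries, a log2 change of −0.02 (95% interval −0.35 to 0.30). The 3p strand miR-99a-3p was not analysed here.

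miR-125b-5p, which both the chromosome 11 and the chromosome 21 hairpins make, did not pass the test. It had 83780.1 and 82141 normalised counts in plus replicates 1 and 2, against 84223 and 85972 in minus replicates 1 and 2. The plus libraries lay just below the minus libraries. The log2 change was −0.04, with a 95% interval of −0.20 to 0.12 (limma, adjusted p = 0.776). Quantile normalization made it −0.16, past the threshold (limma, adjusted p = 0.0186), and median-ratio scaling made it 0.004. Of the 3p strands that tell the copies apart, miR-125b-1-3p from chromosome 11 made up 99.8% in each plus library, against 99.96% in each minus library. The rest, miR-125b-2-3p, was about 6 reads in the plus and 2 in the minus libraries, too few to compare the groups.

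**Figure D3:**
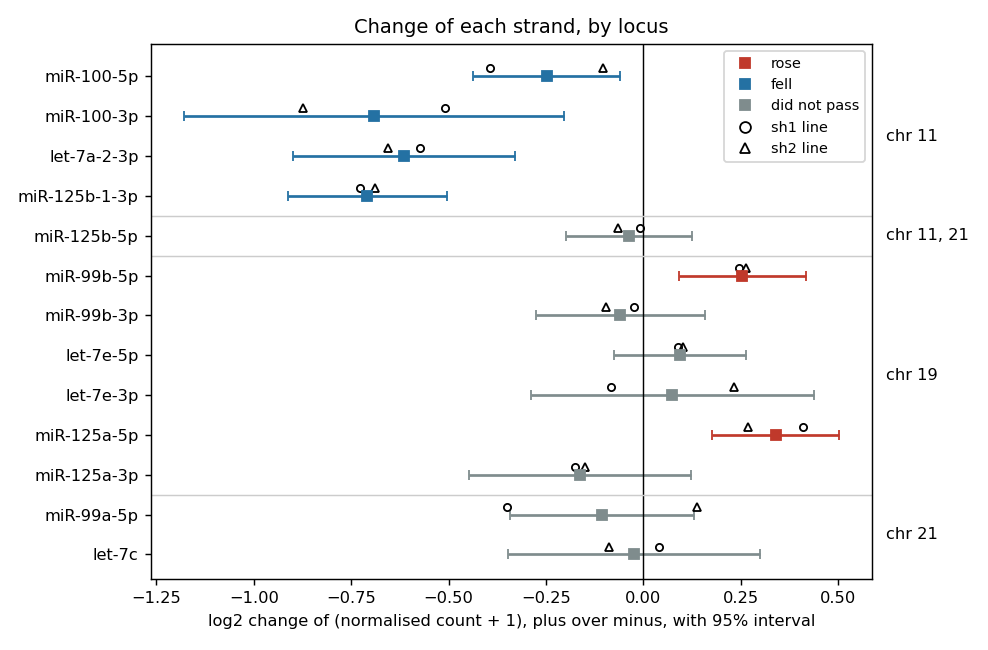
Log2 change of (normalised count + 1), plus over minus, of each tested strand of the 3 clusters including their let-7 strands, with 95% intervals from limma; squares are red for strands that rose, blue for those that fell and grey for those that did not pass. Open symbols give the change within the sh1 (circle) and sh2 (triangle) line, from 1 library a condition. The strands made only on chromosome 11 lie between −0.71 and −0.25, and miR-99b-5p and miR-125a-5p of chromosome 19 at 0.25 and 0.34.

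Because strands with 1 seed are expected to act on overlapping targets, the 5p strands were also summed by seed, with no test of the sum. The ACCCGUA strands summed to 1368686 and 1662881 normalised counts in plus replicates 1 and 2, against 1700624.7 and 1735309.7 in minus replicates 1 and 2. The plus sums were lower, with a log2 ratio of group means of −0.18, at −0.31 in the sh1 line and −0.06 in the sh2 line. Leaving out plus replicate 1 made it −0.05, and leaving out plus replicate 2 made it −0.33. The CCCUGAG strands summed to 136194 and 130446 in the plus libraries, against 123642 and 126068 in the minus libraries. These plus sums were higher, with a log2 ratio of 0.09, which was 0.04 with equal totals and −0.09 under quantile normalization. There were 10.0 and 12.7 counts of the first seed for each count of the second in plus replicates 1 and 2, against 13.8 in each minus library. The other known strand with the seed CCCUGAG, miR-4319, was not analysed here.

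Within both seeds the chromosome 19 strand took a larger share in the plus libraries. miR-99b-5p made up 15.2% and 12.4% of the ACCCGUA counts in plus replicates 1 and 2, against 10.3% and 9.87% in minus replicates 1 and 2. miR-100-5p made up 84.7% and 87.6% in the plus libraries, against 89.6% and 90.1% in the minus libraries. miR-99a-5p made up 0.0655% and 0.0655% in the plus libraries, against 0.0671% and 0.0571% in the minus libraries. miR-125a-5p made up 38.5% and 37.03% of the CCCUGAG counts in the plus libraries, against 31.9% and 31.8% in the minus libraries, and miR-125b-5p the rest.

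**Figure D4:**
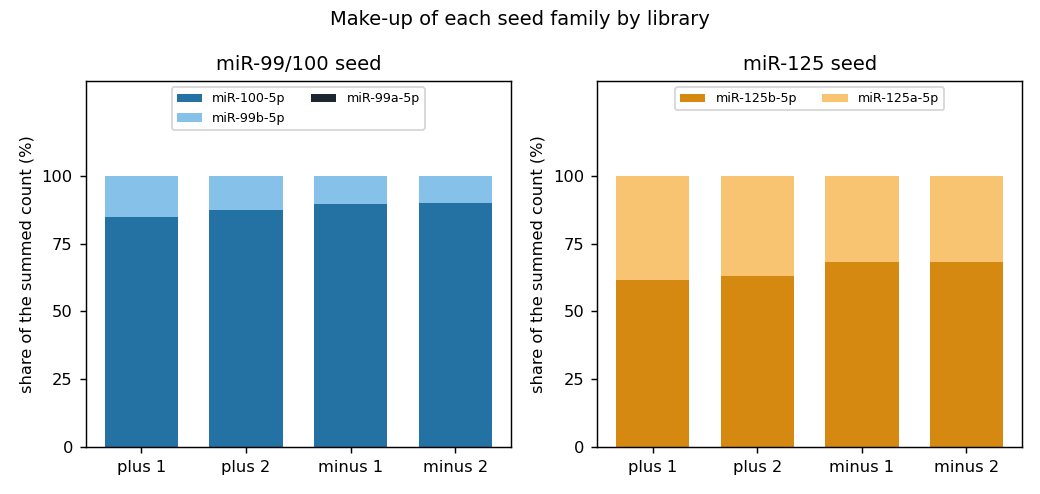
Share of each 5p strand in the summed count of its seed, in percent, in plus and minus libraries. The share of miR-99b-5p (light blue) was 15.2% and 12.4% in the plus libraries, against 10.3% and 9.87% in the minus libraries, and that of miR-125a-5p (light orange) was 38.5% and 37.03% in the plus libraries, against 31.9% and 31.8% in the minus libraries; miR-99a-5p is too small to be seen.

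The differences between strands were taken as log2 ratios within each library, which do not depend on the scaling of a library by a constant. For 5 pairs an exact two-sided permutation test was run, which cannot give a p under 0.333 with 2 against 2 libraries. The lowest permutation p observed after Benjamini-Hochberg adjustment over the 5 was 0.417. miR-99b-5p stood at 18.0 and 14.1 counts per 100 counts of miR-100-5p in plus replicates 1 and 2, against 11.5 and 10.96 in minus replicates 1 and 2. The mean log2 ratio was higher by 0.50 in the plus libraries, by 0.64 in the sh1 and 0.37 in the sh2 line (exact permutation p = 0.333). It was higher by 0.33 without plus replicate 1. miR-125a-5p stood at 62.6 and 58.8 counts per 100 counts of miR-125b-5p in the plus libraries, against 46.8 and 46.6 in the minus libraries. This log2 ratio was higher by 0.38 (exact permutation p = 0.333), with 0.42 in the sh1 and 0.33 in the sh2 line. Quantile normalization, which is not a scaling by a constant, gave 0.19 for this pair and 0.00 for miR-99b-5p over miR-100-5p. The differences were smaller for the other 3 pairs. For miR-125a-5p over miR-99b-5p, both of chromosome 19, the ratio was 25.2 and 23.5 per 100 in the plus libraries, against 22.4 and 23.4 in the minus libraries, a log2 difference of 0.09 (exact permutation p = 0.333). For miR-125b-5p over miR-100-5p the log2 difference was 0.21 (exact permutation p = 0.333), at 0.39 in the sh1 and 0.04 in the sh2 line, and it was 0.03 without plus replicate 1. For miR-99a-5p over miR-100-5p the groups overlapped, with a log2 difference of 0.14 (exact permutation p = 0.667). Under quantile normalization these 3 differences were 0.03, −0.16 and −0.05 in the same order.

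The 3p and 5p strands of a hairpin were then compared within each library, as a description with no test. These 4 hairpins are shown because both of their strands had a mean of at least 10, which miR-125b-2-3p of MIR125B2 did not. The mature strands are in capitals, the 5p strand first (RefSeq, GRCh38.p14).
MIR100: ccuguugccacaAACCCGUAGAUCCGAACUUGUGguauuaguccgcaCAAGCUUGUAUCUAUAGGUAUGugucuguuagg
MIR125B1: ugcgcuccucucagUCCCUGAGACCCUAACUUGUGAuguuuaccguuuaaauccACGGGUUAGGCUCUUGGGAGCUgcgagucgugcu
MIR99B: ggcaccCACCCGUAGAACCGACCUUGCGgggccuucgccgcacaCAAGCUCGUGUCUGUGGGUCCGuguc
MIR125A: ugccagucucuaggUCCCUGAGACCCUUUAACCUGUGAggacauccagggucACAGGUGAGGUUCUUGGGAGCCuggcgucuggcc
In each of them the 5p strand is the main one. miR-125b-1-3p stood at 1.78 and 1.94 counts per 100 counts of miR-125b-5p in plus replicates 1 and 2, against 2.93 and 2.99 in minus replicates 1 and 2, a difference in mean log2 ratio of −0.67. The plus libraries lay well below the minus libraries in both lines, at −0.72 in the sh1 and −0.62 in the sh2 line, with the 5p counts of MIR125B2 included because the sequence is the same. miR-125a-3p stood at 0.632 and 0.658 per 100 counts of miR-125a-5p in the plus libraries, against 0.949 and 0.879 in the minus libraries, a log2 difference of −0.50. miR-99b-3p stood at 0.671 and 0.616 per 100 counts of miR-99b-5p in the plus libraries, against 0.808 and 0.789 in the minus libraries, a log2 difference of −0.31. For both chromosome 19 hairpins the 3p share was thus lower in each plus library than in each minus library. How often such ratios lie apart over other hairpins was not counted. For single rows, the groups did not overlap in 62.9% of those tested.

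For MIR100 the 3p strand was rarest, at 0.00461 and 0.00295 per 100 counts of miR-100-5p in the plus libraries, against 0.00503 and 0.00509 in the minus libraries. The log2 difference was −0.44, with −0.12 in the sh1 and −0.77 in the sh2 line, and it became −0.76 when plus replicate 1 was left out and −0.12 when plus replicate 2 was left out. let-7a-2-3p over let-7a-5p gave a log2 difference of −0.48, while let-7e-3p over let-7e-5p gave −0.02 with overlapping groups. For all 183 hairpins of the table with both strands tested under 1 name, the log2 change of the less abundant strand minus that of the more abundant one had a median of −0.06, with quartiles at −0.34 and 0.12. The values of MIR125B1, MIR125A and MIR100 lie below the lower quartile, and that of MIR99B lies between the quartiles. Whether these hairpins differ from the rest was not tested.

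**Figure D5:**
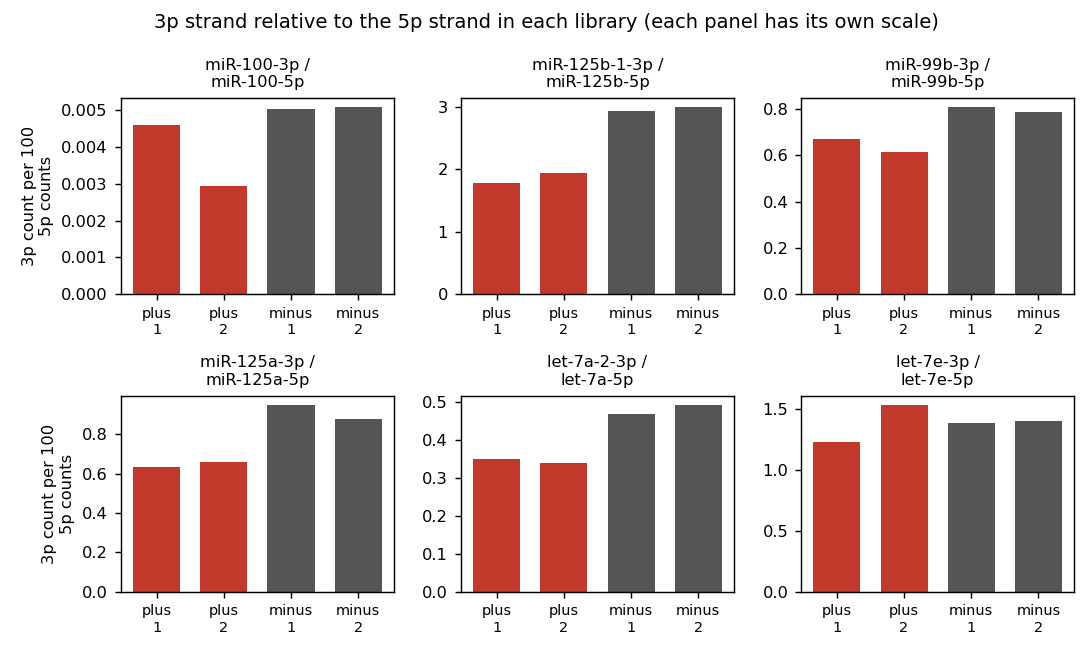
Counts of the 3p strand per 100 counts of the 5p strand of the same hairpin in each plus (red) and minus (grey) library, with a scale of its own in each panel. For miR-125b-1-3p the bars are 1.78 and 1.94 in the plus libraries, against 2.93 and 2.99 in the minus libraries. Among the panels shown, the groups overlap for let-7e only, and how often they overlap over other hairpins was not counted.

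The sequence relatives miR-10a and miR-10b did not pass in any strand. Of their 4 tested strands 0 were called by limma, and 0 had an unadjusted p under 0.05. miR-10a-5p had 154003 and 168066 normalised counts in the plus libraries, against 154111 and 147059 in the minus libraries, with a log2 change of 0.10 (95% interval −0.07 to 0.26). miR-10b-5p had 25198 and 28210.6 normalised counts in the plus libraries, against 24444 and 24455 in the minus libraries, with a log2 change of 0.12 (95% interval −0.04 to 0.29).

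The rows outside the families whose pattern was most like that of miR-100-5p were found by the Euclidean distance between log2 profiles over the 4 libraries, each centred on its mean. The nearest of the 708 other rows was miR-148a-3p, at a distance of 0.06, with 73576 and 94965 normalised counts in the plus libraries, against 101643 and 103464 in the minus libraries. Like miR-100-5p it was lowest in plus replicate 1. It was followed by miR-618 at 0.06, miR-4661-3p at 0.09, miR-145-5p at 0.09 and miR-1255a at 0.10. Among the strands of the families miR-99a-5p came nearest, in place 57 of 708, and miR-100-3p, cut from the same hairpin, came in place 448. With 4 libraries such likeness is a description of these libraries.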

How the data were processed

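The 4 HCT116 small-RNA libraries were made, per the labels' protocols, with a TruSeq small-RNA kit whose 5′ adaptor was extended by random bases, from RNA isolated with a Qiagen kit. For each mature miRNA the authors deposited 1 signal value per library, which was read as a count scaled to a common library size. That reading rests on the values themselves: of those under 60, 86.9% to 100% per library lay within 0.1 of a whole multiple of 1 step. Because this was not nearly all in each library, no count model was run. Titles of the samples name cutadapt, an adapter trimmer. The submitters' processing notes list TopHat2 2.0.8b and edgeR as tools and hg19 and GRCh37 as builds. Which program counted the reads, and against which miRNA annotation, is not given in the sources used here. Columns were matched to samples by library number and index, since column names write sh4 where titles write sh2.

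The step gave 9569759 and 10302847 estimated reads in plus replicates 1 and 2, and 9781020.0 and 10269396 in minus replicates 1 and 2. Chi-square per degree of freedom of these reads was 78.6 between the plus and 23.3 between the minus libraries, so each was kept as a library of its own. The fit was limma 3.58.1 in R 4.3.3 with a mean-variance trend on log2(value + 1), with 2 residual and 43.0 prior degrees of freedom. Intervals of log2 changes are at 95% from this fit. The log2(value + 1) scale understates changes of low rows. The labels name 2 shRNA lines and no separate cultures beyond them, so p-values can only reflect the spread between these libraries. With 2 residual against 43.0 prior degrees of freedom, that spread was estimated mostly from other rows. Same-numbered libraries come from the same line (plus replicate 1 by elimination), so the numbers pair them, and the correlation of their deviations from the group means was 0.056 over 709 rows. Named rows were all strands of the families, the let-7 strands of the 3 loci, rows that share a 5p seed, miR-10a and miR-10b, and the 5 rows nearest to miR-100-5p. The members and lists were chosen with earlier results of these data known. miR-125b-2-3p lay under the level filter. All 4 of its values equal those of another row, and how many rows share them was not counted. Alternatives changed the pseudocount, level filter, scaling, trend, replicate block and the libraries used.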

Additional observations from a re-analysis of the deposited data

Results flagged for a closer look

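For some strands the sh1 and sh2 lines moved in opposite directions, each from 1 library a condition, and the difference between the lines was not tested. The log2 change, plus over minus, of miR-99a-5p was −0.35 in the sh1 line and 0.14 in the sh2 line. For let-7e-3p it was −0.0828 in the sh1 line and 0.23 in the sh2 line, and for let-7c 0.0414 in the sh1 line and −0.0883 in the sh2 line. For miR-10a-5p it was −0.001 in the sh1 line and 0.19 in the sh2 line, and for miR-10b-3p −0.18 in the sh1 line and 0.0594 in the sh2 line. The log2 ratio of let-7e-3p over let-7e-5p changed by −0.17 in the sh1 line and 0.13 in the sh2 line. None of these strands passed the test over both lines.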

How the results depend on the processing

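The fit over all rows called 202 (95 higher, 107 lower), and 5 (5 higher, 0 lower) without the level filter or without the trend, and 101 (47 and 54) under quantile normalization. With 1 library left out it called 7 to 115 (6 to 57 higher, 1 to 59 lower). Of the members 2 rose and 3 fell. With equal totals 1 rose, under median-ratio scaling 2 fell, at a minimum mean of 100 only 1 fell, and without the filter or the trend 0 rose and 0 fell. Under quantile normalization 0 rose and 2 fell. There miR-125b-1-3p kept its call, miR-125b-5p gained one, and miR-100-5p and miR-100-3p lost theirs. With 1 library left out 0 rose and 0 to 1 fell. No tested member turned to a call in the opposite direction in these 13 alternatives. The pairing by line, with the replicate number as a block, changed no call of a member (miR-100-5p adjusted p = 0.0177, miR-99b-5p 0.00591, limma).

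Quantile normalization sets miR-100-5p (rank 2) and miR-99b-5p (rank 9) to equal values in all libraries by construction, and their log2 ratio to 0.00. It took miR-125a-5p over miR-125b-5p, 0.38, to 0.19, and turned miR-125b-5p over miR-100-5p to −0.16 and miR-99a-5p over miR-100-5p to −0.0486. It took the 3p over 5p differences to −0.53 for MIR125B1, −0.0848 for MIR99B, −0.13 for MIR125A, −0.29 for let-7a-2 and 0.16 for let-7e, and the seed sums to 0.00 (ACCCGUA) and −0.0895 (CCCUGAG). The CCCUGAG sum was 0.13 under median-ratio scaling and 0.0389 with equal totals. The median log2 change of the chromosome 11 strands, −0.69, was −0.65 under median-ratio scaling and −0.75 with equal totals, and that of the chromosome 19 strands, 0.10, was 0.0399 with equal totals and −0.0424 under quantile normalization. Apart from what the construction of a setting shows, the cause was not tested.

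With 1 library left out the ACCCGUA sum ranged from −0.328 to −0.047, the CCCUGAG sum from 0.06 to 0.13, the chromosome 11 median from −0.72 to −0.54, the chromosome 19 median from 0.06 to 0.14 and miR-99a-5p from −0.25 to 0.04. The 3p over 5p difference ranged from −0.76 to −0.12 for MIR100 and from −0.74 to −0.61 for MIR125B1. At about 1 to 3 reads a library, a difference in miR-125b-2-3p was not detectable.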
